A study of Rattus norvegicus with 15 samples.

Results

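MiR-451 and miR-144 are the microRNAs of one red-blood-cell cluster, and their levels were followed in rat liver under long ethanol feeding and in the hours after part of the liver was removed. They were chosen by name from the array's annotation, and both were present, as 2 of 350 rat miRNAs. The study compared livers of ethanol-fed rats (EtOH) with those of rats pair-fed a carbohydrate control diet (CHO), sampled both during partial hepatectomy (PHx) and again 1, 6, 12 or 24 h later. RNA of 4 rats was pooled for each array, and 15 single-colour Cy3 arrays were analysed. Before PHx there were 3 EtOH pools and 4 CHO pools. After it, EtOH and CHO each had a single pool per time point. All rats of both diets had surgery, and the sources used here do not give strain, sex or age. By the animal identifiers in the labels, 7 pools have an array after and an array before PHx from the same 4 animals, while an array before PHx from the animals of the EtOH 24 h pool was not analysed here. The 1 h and 6 h pools of each diet share 1 animal. The 15 arrays thus come from 8 pools. The p-values measure the spread between pools of rats, not between single rats, and the fits without a pool term treat the arrays of one pool as separate samples.

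MiRNAs are short RNAs that guide an Argonaute protein to messenger RNAs that pair with their seed, the bases near the 5′ end, and lower the output of those messages. MiR-144 and miR-451 are cut from one primary transcript that the transcription factor GATA1 switches on as red cell precursors mature. MiR-451 is unusual in that its hairpin is too short for Dicer and is cut by Argonaute 2 instead. Mature red cells carry a large amount of miR-451, so liver tissue holds it through the blood in its vessels and sinusoids, and it is often read as a sign of blood or of burst red cells in a sample. In bulk tissue, fewer cells of a type and less RNA per cell cannot be told apart. No haemoglobin or other blood measurement was analysed here, and the labels used here do not say whether livers were flushed of blood before freezing.

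The sequences below show that the members are neighbours in the genome with unrelated seeds. Both members were matched in RefSeq by name, and the sequences and positions are RefSeq's, on the rat build GRCr8. The array names carry no arm, so the arms given are those the plain names usually stand for. Capitals mark the seed, bases 2 to 8 from the 5′ end.
rno-miR-451-5p: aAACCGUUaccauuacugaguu
rno-miR-144-3p: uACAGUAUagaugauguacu
MiR-451-5p lies at chr10:63459585-63459606 and miR-144-3p at chr10:63459446-63459465, both on the plus strand. In the table of 693 mature rat sequences, 0 others share bases 2 to 8 with either member. The hairpins from which the members are cut are shown next, with the mature miRNA in capitals.
Mir144 hairpin: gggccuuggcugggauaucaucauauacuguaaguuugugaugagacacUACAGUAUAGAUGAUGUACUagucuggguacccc
Mir451a hairpin: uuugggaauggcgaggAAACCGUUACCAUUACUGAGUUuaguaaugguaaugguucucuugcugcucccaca
The Mir144 hairpin spans chr10:63459397-63459479 and the Mir451a hairpin chr10:63459569-63459640, with 89 bases between them. The mature miRNA takes bases 50 to 69 of the 83-base Mir144 hairpin and bases 17 to 38 of the 72-base Mir451a hairpin, whose mature strand runs past the middle of the hairpin. Bases 2 to 7 of miR-144-3p occur in 2 other mature miRNAs, rno-miR-101a-3p and rno-miR-101b-3p, shown here because they are the nearest relatives by seed.
rno-miR-101a-3p: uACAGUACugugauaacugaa
rno-miR-101b-3p: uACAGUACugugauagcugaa
Both are identical to miR-144-3p over their first 7 bases and part from it at the last base of the seed.

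Values are scaled signals: each array's spot intensities, averaged per probe, were set to a common 75th percentile, so they are relative to the other miRNAs of the same array. MiR-451 was well above background on 15 of 15 arrays, which makes it a measured miRNA of these livers under both diets and at every time. Its spots varied little, with a coefficient of variation of 6.57% to 13.5% on 14 arrays. The exception was the EtOH array before PHx of the 12 h pool, where it was 54.6%, and where the 75th percentile before scaling was the lowest of the 15 (236, against 288 to 516 on the other 14). That array was poorer as a whole. Its median coefficient of variation over detected probes was 34.0%, against 7.77% to 9.09% on the other 14, and it detected the fewest miRNAs (108). A second probe of miR-451 tracked the first with r = 0.996 over the 15 arrays and gave an EtOH minus CHO difference after PHx of 0.75 on the log2 scale, against 0.73 with the first. The arrays of the 1 h and 6 h pools were on one slide and those of the 12 h and 24 h pools on another, and each slide held both diets and both stages.

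Before surgery, miR-451 had scaled signals of 618, 890 and 841 in the EtOH 1 h, 6 h and 12 h pools, against 772, 1013, 611 and 1212 in the CHO pools named for 1, 6, 12 and 24 h. The lowest and the highest of these 7 pools were both CHO pools, so the EtOH values lay inside the CHO range. MiR-451 averaged 783 ± 145 in EtOH livers (SD, n = 3) and 902 ± 265 in CHO livers (SD, n = 4). The log2 difference, EtOH minus CHO, was -0.17 (SE 0.248, adjusted p 0.680 with limma over the 134 tested miRNAs). It was -0.01 without the EtOH array of the 1 h pool, -0.02 without the CHO array of the 24 h pool and -0.35 without the CHO array of the 12 h pool. Without the EtOH array of the 12 h pool, the one with uneven spots, it was -0.23. Without scaling it was -0.71 (adjusted p 0.0556), where the median of all tested miRNAs was -0.53. Calls here are adjusted p-values under 0.05, and 15.7% of tested miRNAs were called in this comparison. The diets overlapped for miR-451, as they did for all but 25.4% of tested miRNAs.

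After surgery, miR-451 had scaled signals of 1197, 914, 873 and 863 in EtOH livers at 1, 6, 12 and 24 h, against 707, 519, 840 and 352 in CHO livers at the same times. All 4 EtOH arrays lay above all 4 CHO arrays, though at 12 h the values were close together and the gap was widest at 24 h. MiR-451 averaged 962 ± 158 in EtOH livers and 604 ± 214 in CHO livers (SD, n = 4 each, over times). Diets did not overlap for 14.9% of tested miRNAs in this comparison, in either direction. The log2 difference over the 4 times was 0.73 (SE 0.229, unadjusted p 0.00847, adjusted p 0.0631 with limma), which missed the threshold, while 7.46% of tested miRNAs were called. It was 0.54 (adjusted p 0.186) without the CHO 24 h array, and the same without the EtOH 24 h array. Within the slide of the 1 h and 6 h pools it was 0.79 (adjusted p 0.0464) and within the slide of the 12 h and 24 h pools 0.68 (adjusted p 0.442). It also passed when the EtOH before PHx array of the 12 h pool was left out (0.73, adjusted p 0.0485), and when either 12 h array after PHx was left out (0.96, adjusted p 0.0389).

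At single times a fit with 1 term for each of the 10 combinations of diet and time gave EtOH minus CHO differences for miR-451 of 0.76 at 1 h (adjusted p 0.676), 0.82 at 6 h (0.492), 0.06 at 12 h (1) and 1.29 at 24 h (0.749), each with an SE of 0.481 on the log2 scale. The direction was higher in EtOH at each of the 4 times, and none passed. That fit takes its spread from the pools before PHx and assumes the single later pools share it, and 0.746%, 0%, 3.73% and 0% of tested miRNAs were called at 1, 6, 12 and 24 h. The diet difference after PHx minus that before PHx was 0.91 (SE 0.338, unadjusted p 0.0211, adjusted p 0.587 with limma), and 0% of tested miRNAs were called, although 9 had an unadjusted p under 0.05. So a diet difference of miR-451 that differs between the stages was not shown at this number of arrays. Averaged over both stages, the difference was 0.28 (SE 0.169, adjusted p 0.225), beside 26.1% of tested miRNAs called.

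**Figure D1:**
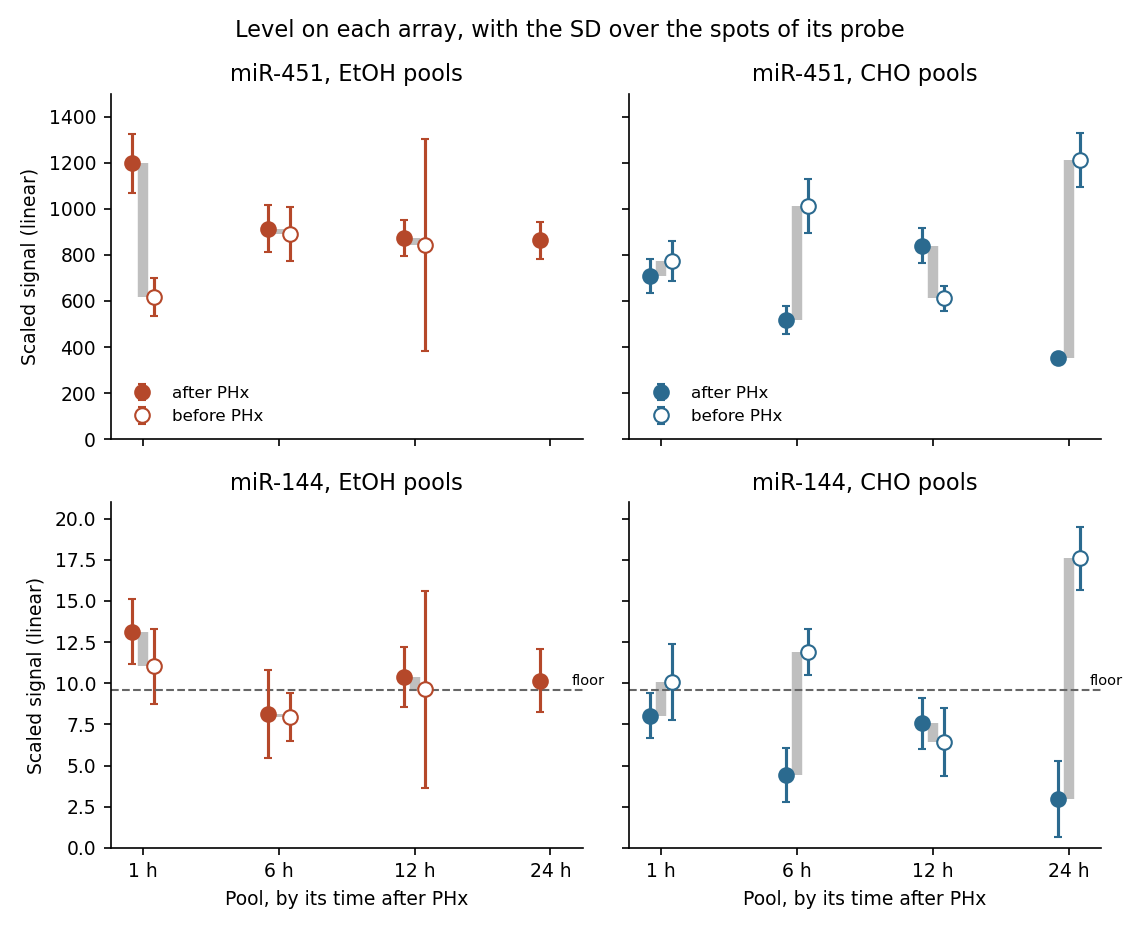
Scaled signal on a linear axis of miR-451 (top) and miR-144 (bottom) in EtOH pools (left) and CHO pools (right), with filled points for the array after PHx, open points for the array before PHx of the same animals, error bars for the SD over the spots of the probe, and grey bars joining the arrays of one pool. MiR-451 stays between 863 and 1197 in EtOH livers after PHx and is lowest in the CHO 24 h array at 352. MiR-144 lies around or under the floor of 9.61 (dashed), with its highest signal, 17.6, before PHx in the CHO 24 h pool.

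Comparing the same animals after and before surgery, miR-451 moved little in some pools and a great deal in others. In EtOH livers it was 1197 after PHx against 618 before in the 1 h pool, 914 against 890 in the 6 h pool and 873 against 841 in the 12 h pool. The 841 comes from the array with uneven spots (coefficient of variation 54.6%). In CHO livers it was 707 after PHx against 772 before in the 1 h pool, 519 against 1013 in the 6 h pool, 840 against 611 in the 12 h pool and 352 against 1212 in the 24 h pool. Thus 4 pools were higher and 3 lower after PHx, the 3 lower ones all CHO pools. On the log2 scale the changes were 0.95, 0.04 and 0.05 in the EtOH 1 h, 6 h and 12 h pools. They were -0.13, -0.97, 0.46 and -1.78 in the CHO pools named for 1, 6, 12 and 24 h. Their mean was -0.20 ± 0.91 (SD, n = 7), with a two-sided exact sign-flip p of 0.609, where 0.0156 is the smallest that 7 pools allow. Without the CHO 24 h pool the mean was 0.07, of the opposite sign.

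The CHO 24 h pool held both the highest and the lowest miR-451 signal of the 15 arrays, 3.44-fold apart. Before scaling, its probe signal was 308 after PHx and 1588 before, so scaling narrowed the gap rather than made it. The 75th percentile before scaling was 344 on the array after PHx and 516 on the array before, the highest of all, and 116 miRNAs were detected after PHx, within the range of 108 to 131 over all arrays. The part of this difference in brightness in the result was not tested. Of the 134 tested miRNAs, miR-451 had the lowest log2 change in this pool and miR-144 the next lowest, -0.87 with values under the floor set to it. The third was miR-142-3p, a leukocyte miRNA, at -0.44, and the median of all tested miRNAs was 0.06.

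MiR-451 also had the lowest change of the 134 in the CHO 6 h pool and the highest in the EtOH 1 h pool. In the CHO 6 h pool it was followed by miR-29c* at -0.67, and in the EtOH 1 h pool by miR-466b at 0.82. In the EtOH 6 h and 12 h pools it was among the middle ranks, 85th and 70th from the highest. These ranks describe single pools, for which there is no replicate and no test.

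**Figure D2:**
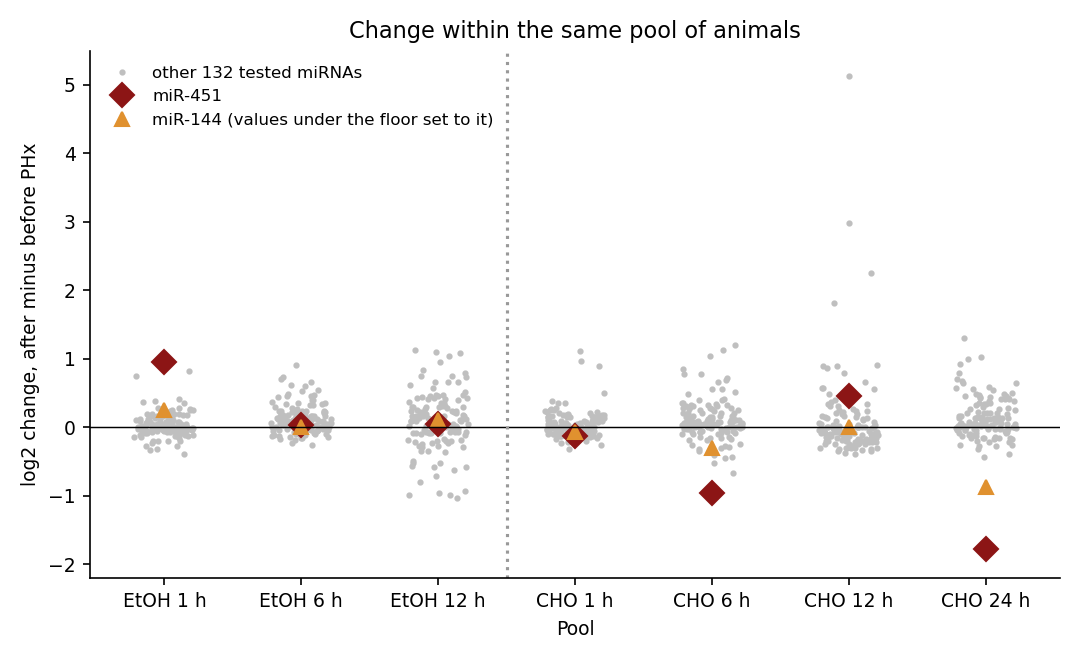
Log2 change after minus before PHx within each pool of animals, EtOH pools at the left and CHO pools at the right, with miR-451 as diamonds, miR-144 as triangles and the other 132 tested miRNAs as grey dots. MiR-451 stands at the upper edge in the EtOH 1 h pool (0.95) and at the lower edge in the CHO 6 h (-0.97) and CHO 24 h (-1.78) pools.

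Averaged over the diets, no change of miR-451 after PHx passed the test. Relative to before PHx, the log2 difference was 0.16 at 1 h, -0.25 at 6 h and 0.06 at 12 h (SE 0.261 each, adjusted p 0.719 to 0.980 with limma). At 24 h it was -0.58 (SE 0.261, unadjusted p 0.0490, adjusted p 0.219), and leaving out 1 of the 24 h arrays moved it to -0.95 (EtOH) or -0.20 (CHO). At these 4 times 0%, 4.48%, 5.97% and 13.4% of tested miRNAs were called. The mean over the times was -0.15 (SE 0.169, adjusted p 0.707), beside 6.72% called. With the pool as a fixed block, the 24 h value was -1.50 (SE 0.421, adjusted p 0.198). The only 24 h pair in that fit is the CHO pool, since the EtOH 24 h pool drops out for want of an array before PHx. Its diet term comes from the pools of the other times, and the CHO 24 h pool by itself changed by -1.78. With the block 3 miRNAs were called at 12 h, against 8 without it.

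Each diet was also set against its own livers before PHx. In EtOH livers the log2 differences from before PHx were 0.63, 0.24, 0.17 and 0.16 at 1, 6, 12 and 24 h (SE 0.392 each, adjusted p 0.843 to 1 with limma). In CHO livers they were -0.30, -0.75, -0.06 and -1.31 at the same times (SE 0.380 each), with adjusted p of 0.988, 0.476, 0.966 and 0.149. None of these 8 changes passed. Of tested miRNAs, 0%, 1.49%, 5.97% and 7.46% were called in EtOH at 1, 6, 12 and 24 h, and 0.746%, 0.746%, 6.72% and 5.22% in CHO. The CHO 24 h change had the smallest unadjusted p of the 8, 0.0122, and it rests on 1 array after PHx.

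Ranked by mean log2 scaled signal, the 10 combinations of diet and time ran EtOH 1 h, EtOH 6 h, EtOH 12 h, CHO before PHx, EtOH 24 h, CHO 12 h, EtOH before PHx, CHO 1 h, CHO 6 h and CHO 24 h. The order places the EtOH livers after PHx near the top and 3 of the 4 CHO livers after PHx at the bottom. The pooled SD between pools before PHx was 0.38 on the log2 scale, and 3 gaps between neighbours exceeded it. Those were the gaps between EtOH 1 h and EtOH 6 h (0.39), between CHO 1 h and CHO 6 h (0.45) and between CHO 6 h and CHO 24 h (0.56). Each lies between single arrays, and a difference of single pools spreads more widely than 1 pool does. The order therefore does not establish a difference between neighbours.

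MiR-451 was among the more variable miRNAs of these livers, in CHO livers also before any surgery. Its log2 SD over the 4 CHO pools before PHx was 0.43, the 3rd highest of 134 tested miRNAs, whose median was 0.117. Among the 100 miRNAs detected on all 15 arrays it was the highest. Over the 3 EtOH pools before PHx its log2 SD was 0.28, which was not ranked among the miRNAs. Over all 15 arrays its SD was 0.46, rank 10 of 134, beside a median of 0.197. The residual SD of the fit with terms for diet and time was 0.37 for miR-451 and 0.146 at the median. The SD between CHO pools before PHx was thus larger than the size of the diet difference at that stage.

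MiR-144 sat at the limit of detection, so its differences are mostly bounds. Of its 2 probes, one was well above background on 0 arrays and the other on 6 of 15. Before PHx its scaled signal was 11.02, 7.97 and 9.63 in the EtOH 1 h, 6 h and 12 h pools, detected on 0 of 3 arrays. It was 10.1, 11.9, 6.43 and 17.6 in the CHO pools named for 1, 6, 12 and 24 h, detected on 3 of 4. These counts do not follow the scaled signal alone: the 11.02 of the EtOH 1 h pool was not detected, the 10.1 of the CHO 1 h pool was. The 75th percentile before scaling was 288 on that EtOH array and 424 on that CHO array. The part of array brightness in the detection counts was not tested. After PHx it was 13.1, 8.15, 10.4 and 10.2 in EtOH livers at 1, 6, 12 and 24 h, detected on 3 of 4 arrays, against 8.02, 4.44, 7.56 and 2.99 in CHO livers, detected on 0 of 4. All EtOH arrays after PHx were thus above all CHO arrays after PHx in measured signal, but barely: 8.15 at EtOH 6 h against 8.02 at CHO 1 h. Neither the EtOH 6 h value nor the CHO values were well above background, and on floored values all of them sat at the floor. The share of tested miRNAs set apart in this way on measured signal was not computed.

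Signals under the floor of 9.61, the median over arrays of the lowest detected signal, were set to it before the test. On that scale miR-144 differed between EtOH and CHO by 0.16 after PHx (SE 0.166, adjusted p 0.563 with limma) and by -0.24 before PHx (SE 0.179, adjusted p 0.429). The value before PHx was -0.06 without the CHO array of the 24 h pool, the brightest of the 15 for miR-144. Its time differences were 0.04, -0.19, -0.13 and -0.15 at 1, 6, 12 and 24 h, with adjusted p of 0.703 to 0.980. A floored value understates any change of so dim a miRNA. The measured means were 10.46 in EtOH and 5.75 in CHO livers after PHx, and the bound on their fold was under 1, so no fold is given. For CHO livers after PHx against before PHx the bound was 1.05-fold lower, with measured means of 5.75 after and 11.5 before. The CHO 12 h pool went the other way in measured signal (7.56 after, 6.43 before). For EtOH against CHO livers before PHx the bound was 1.01-fold lower, with measured means of 9.54 and 11.5. In the group with no detected array, these bounds take the larger of each array's lowest detected signal and its measured signal. In the other group they take the measured signal, also where miR-144 was not detected. They carry no error and were not tested, so values this close to 1 do not establish a difference. Without a floor the EtOH minus CHO difference after PHx was 0.95 (adjusted p 0.0478), and with the software's total signal per miRNA 1.11 (adjusted p 0.0344). With a normexp background it was -0.48 (adjusted p 0.438), but that background failed on 2 arrays, the CHO 24 h array of this comparison among them. With 1 background value per array it was 0.13 (adjusted p 0.801). It was above 0 in 31 of 32 alternatives. Where all CHO arrays after PHx sat at the floor, though, it could not fall below 0. This count therefore says little about the direction. The size is thus not firm, and the direction is read from CHO values that were not well above background.

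In 7 of 7 pools the change of the measured miR-144 signal after PHx had the same sign as that of miR-451. These signs are read largely from signal not well above background: miR-144 was detected on 1 array in 5 of these pools and on 0 arrays in the other 2, the EtOH 6 h and CHO 12 h pools. It was detected on both arrays in 0 pools. On floored values those 2 pools showed no change. The share of tested miRNAs that agree in sign with miR-451 in all 7 pools was not computed. Over the 15 arrays the measured signals correlated with Pearson r = 0.852 and Spearman rho = 0.739, and with r = 0.741 over the 13 arrays left without the CHO 6 h and CHO 24 h arrays, the farthest from the median of miR-451. The arrays share pools, scaling and brightness, so these are descriptions: miR-451 also correlated with the 75th percentile before scaling, with r = 0.401.

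**Figure D3:**
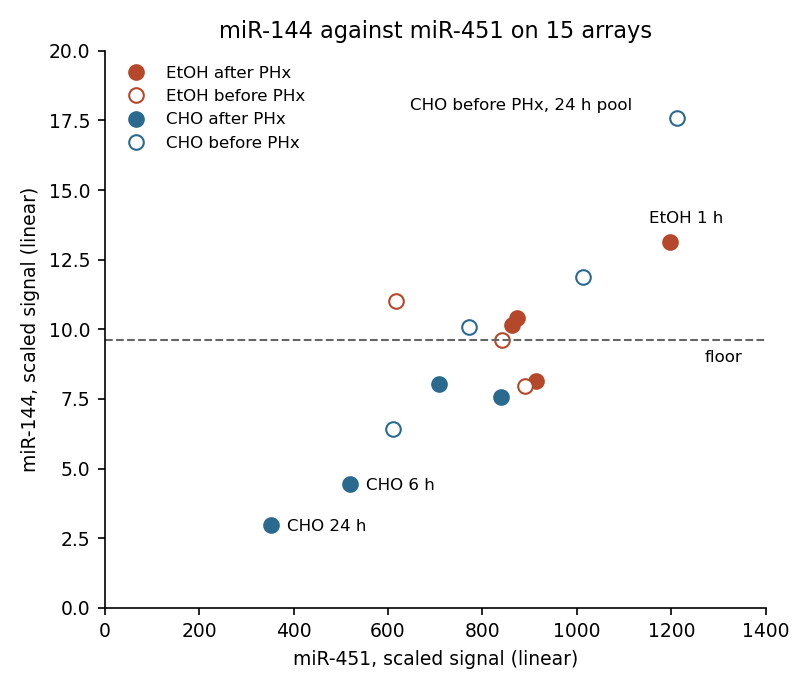
Scaled signal of miR-144 (vertical) against miR-451 (horizontal) on the 15 arrays, both axes linear, filled points for arrays after PHx, open points for arrays before PHx, and a dashed line at the floor of 9.61. The CHO 24 h and CHO 6 h arrays are lowest in both miRNAs, and the CHO array before PHx of the 24 h pool is highest in both.

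Among all tested miRNAs, miR-144 had the pattern most like miR-451. On floored log2 values over the 15 arrays its Pearson r was 0.58 (Spearman rho 0.60), and it was 0.68 without the CHO 6 h and CHO 24 h arrays. The next in order were miR-185 (0.38), miR-31 (0.35), miR-107 (0.32) and miR-152 (0.31). Without the same 2 arrays these dropped to 0.16, 0.03, -0.00 and 0.07, so their likeness rested on those arrays. Leaving them out also brought miR-374 to 0.60, near miR-144, from -0.07 over the 15 arrays. The miR-101 miRNAs, which share the first 7 bases with miR-144-3p, had r of -0.27 (miR-101a) and -0.24 (miR-101b) against miR-451, and 0.04 and 0.08 without the same 2 arrays. Their EtOH minus CHO differences after PHx were -0.17 and 0.02, with adjusted p of 0.465 and 0.850.

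Markers of other cell types that liver tissue holds were read beside the members, from lists drawn up with earlier results of these data known. Of 4 erythroid names listed, miR-451 and miR-144 were on the array, and miR-144* and miR-486 were not analysed here. The median diet difference of the 2 members after PHx was 0.45, beside -0.05 over all tested miRNAs. After PHx, 0 of the 2 were called for diet, beside 7.46% of all tested miRNAs, and such a count says little for 2 members.

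Some miRNAs are abundant in red cells but also made by many other cells. Of the 4 listed, miR-16, miR-15b and miR-25 differed by -0.04, 0.13 and 0.12 between EtOH and CHO after PHx and did not pass. MiR-92a, of the miR-17-92 cluster, fell by 0.38 on the log2 scale in EtOH (adjusted p 0.032 with limma), the opposite sign to miR-451. Their summed signal was 1508 to 1726 in EtOH livers and 1597 to 1764 in CHO livers after PHx. In the CHO 24 h pool, where miR-451 was lowest after PHx, the 4 miRNAs were 0.03 to 0.36 higher after PHx on the log2 scale. In the EtOH 1 h pool, where miR-451 was 0.95 higher, miR-16 was 0.19, miR-15b 0.25 and miR-25 0.16 higher, and miR-92a changed by -0.04. In the CHO 6 h pool, where miR-451 changed by -0.97, miR-16 changed by -0.00, miR-15b by 0.05, miR-25 by 0.04 and miR-92a by 0.33. Over the 15 arrays their r with miR-451 was -0.49 for miR-92a, -0.16 for miR-25, -0.08 for miR-15b and -0.08 for miR-16. Without the CHO 6 h and CHO 24 h arrays it was -0.31, 0.14, 0.20 and 0.05 in the same order, so for 3 of the 4 the sign rested on those arrays.

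Leukocyte miRNAs report the white cells that blood and liver both hold. After PHx 0 of 5 tested members were called for diet, beside 7.46% of all tested miRNAs, and such a count says little for so short a list. The median of the 5 was -0.07, beside -0.05 over all tested miRNAs, and the list's summed signal over 6 measured members was 349 to 380 in EtOH livers and 327 to 459 in CHO livers. The defining miR-142-5p was well above background on 0 arrays, and miR-155 was not analysed here. MiR-223, abundant in neutrophils and other myeloid cells, rose after PHx, by 0.67 at 6 h, 0.92 at 12 h and 0.60 at 24 h (adjusted p 0.0104, 0.000633 and 0.00875 with limma), and it was the 1 member of 5 called at each of these times, beside 4.48%, 5.97% and 13.4% of all tested miRNAs. The other 4 members had values of both signs, and at 24 h the median of the list was -0.15, with miR-150 at -0.37, miR-342-3p at -0.26, miR-146a at -0.15 and miR-142-3p at 0.08. The lymphocyte miR-150 differed between EtOH and CHO by -0.35 after PHx (adjusted p 0.0631), again opposite in sign to miR-451.

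Hepatocyte, endothelial and stellate markers are given by their values, since with 7.46% of all tested miRNAs called for diet after PHx, 0 called in lists this short says little about them. Of the hepatocyte miR-122, miR-192 and miR-194, 0 of 3 passed, with differences of 0.07, 0.08 and 0.13, and their summed signal was 38342 to 46363 in EtOH livers and 36651 to 41243 in CHO livers. Endothelial miR-126 and miR-126* differed by -0.11 and -0.14, with 0 of 2 called. Stellate and mesenchymal miR-199a-3p, miR-214, miR-143 and miR-145 differed by 0.10, -0.07, -0.14 and -0.02, with 0 of 4 called. Among epithelial markers 0 of 3 tested were called after PHx, while before PHx, where 15.7% of all tested miRNAs were called, miR-200a (-0.45) and miR-200b (-0.57) fell in EtOH livers (adjusted p 0.017 and 0.015). The leukocyte miR-142-3p fell before PHx as well, by 0.50 on the log2 scale (adjusted p 0.043).

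**Figure D4:**
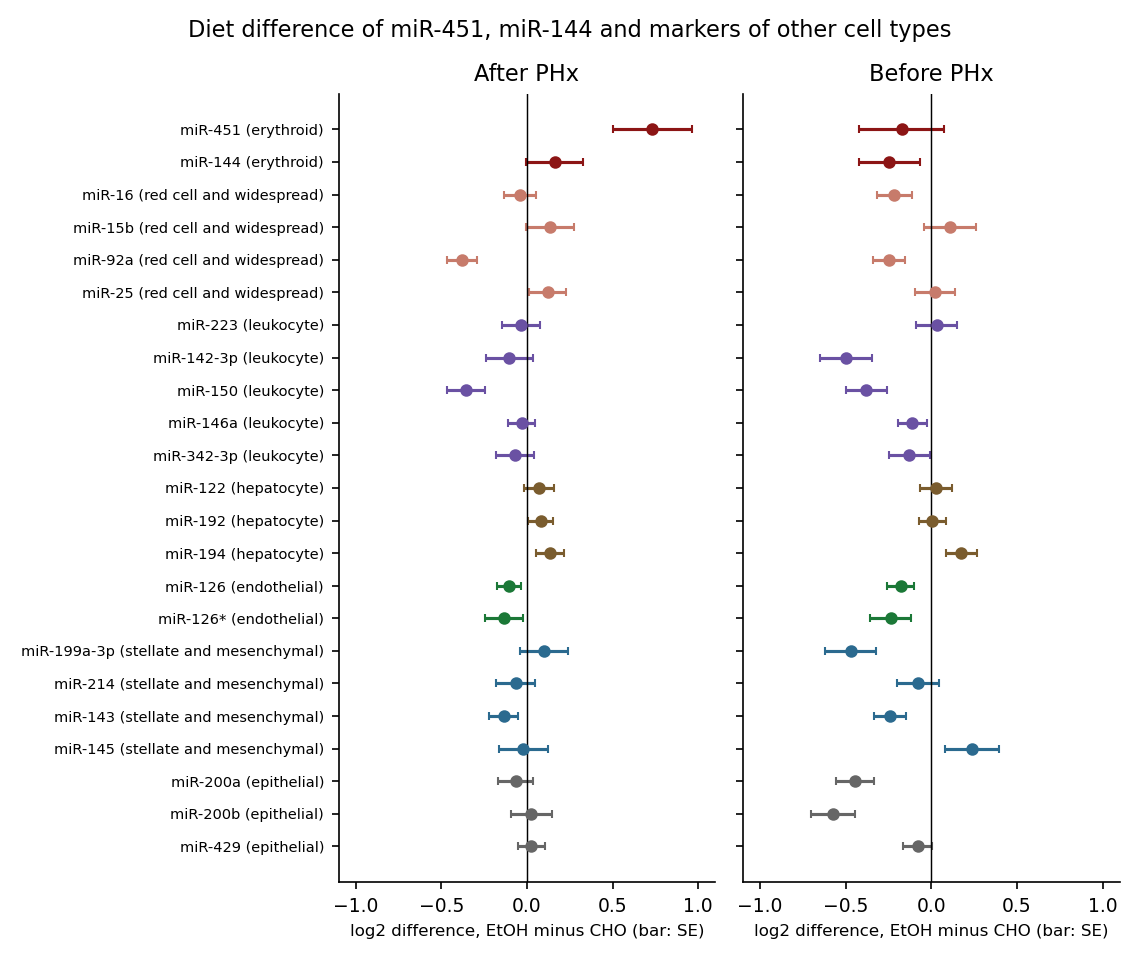
Log2 difference, EtOH minus CHO, of miR-451, miR-144 and the tested markers of other cell types, after PHx (left panel) and before PHx (right panel), with bars for the SE of the limma fit. MiR-451 lies farthest right after PHx (0.73) with the widest bar, and the hepatocyte and endothelial markers lie between -0.14 and 0.13.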

How the data were processed

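Liver RNA of 4 rats per pool was hybridised to 15 one-colour Agilent miRNA arrays. The deposited scanner files give linear intensity per spot, with local background subtracted by Agilent Feature Extraction, in version 10.5.1.1 per the file headers (the submitters' processing notes give 10.7.3.1). Log2 values per miRNA are in the authors' deposited table, with their method, scale and centring not given in the sources used here; it was an alternative.

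Spots marked as outliers (2503, or 2.38%) and control spots were left out. Mean processed signals per probe were scaled by the 75th percentile of the 185 probes that every array detected, floored at 9.61, and log2 was taken. Detection of a probe required a share of 0.5 or more of its spots well above background, and the brightest of a miRNA's probes stood for it. MiRNAs detected on at least 3 arrays were tested (134, leaving 216 untested). The limma fit (version 3.58.1, R 4.3.3) covered all 15 arrays, with terms for each time and for diet at either stage (8 residual degrees of freedom), and with 10 cells of diet and time (5). Benjamini-Hochberg adjustment ran over all 134. Within-pool changes had an exact sign-flip test. The fit was tested on simulated data.

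Pools pair by the labels' animal identifiers. The consensus correlation of arrays of one pool was 0.114, and fits with the pool as a block were alternatives. The normexp alternative used median in place of mean signals. It failed on 2 arrays, so 1 background value per array was added as an alternative. Alternatives with the median over spots and with no floor were also added after seeing the data. The members, the marker lists and the naming rule (both members, the 5 miRNAs most correlated with miR-451, and list members as examples) were chosen with earlier results of these data known. Other miRNAs named were chosen after their values were seen. The number of arrays limits the precision.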

Additional observations from a re-analysis of the deposited data

How the results depend on the processing

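The EtOH minus CHO difference of miR-451 after PHx was positive under each alternative run and missed the threshold under most. It passed with the 75th percentile over all probes (0.98, adjusted p 0.0182 with limma), with the total gene signal (0.77, 0.0434) and within slide 1 (0.79, 0.0464), and leaving out single arrays moved it between 0.54 and 0.96. Scaling over all probes also moved the median of all tested miRNAs to 0.19, against -0.05 as reported, and relative to that median miR-451 was 0.79, against 0.78. Normexp put that median at -0.40. The number of miRNAs called for diet after PHx was 10, and ranged from 0 (both normexp backgrounds, within slide 2) to 33 (without EtOH before PHx replicate 3). For diet before PHx 21 were called, against 76 without scaling and 2 with all-probe scaling.

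Before PHx its diet difference lay between -0.35 and -0.012 without single arrays and was -0.71 without scaling. The 12 h difference of miR-451 had the opposite sign with all-probe scaling (-0.15) and in the authors' table (-0.0028), and lay between -0.39 and 0.51 when single arrays were left out. Its paired change lay between -0.39 and 0.069 when single pools were left out. Its own-diet differences turned sign in 2 cases, EtOH at 24 h (-0.0033 to 0.26 without single arrays before PHx, negative without the 1 h pool) and CHO at 12 h (-0.23 to 0.10, positive without the 6 h or the 24 h pool). The CHO 24 h difference was called with normexp (-1.04) and with 1 background value per array (-1.17). Normexp failed on the CHO 24 h array itself, so its value is not a sound one, and either rests on that single array after PHx. The pool as a fixed replicate block gave 0.56 for the difference between stages (adjusted p 0.698) and changed no call of either member.

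MiR-144, at the floor on many arrays, depended on the processing. Its diet difference before PHx lay between -0.35 and -0.058 without single arrays and became 0.020 in the authors' table, 0.63 with normexp and 0.33 with 1 background value. After PHx it passed with the total gene signal (1.11) and no floor (0.95), was 1.27 in the authors' table (adjusted p 0.0761) and -0.48 with normexp. Over both stages it turned positive with all-probe scaling (0.017), total gene signal (0.50), the authors' table (0.64), normexp (0.075), 1 background value (0.23), no floor (0.38), slide 1 alone (0.068) and the pair-fed set as a replicate block (0.051), and lay between -0.094 and 0.051 without single arrays. The stage difference became -1.11 with normexp and -0.20 with 1 background value. At 1 h it was -0.013 without scaling, -0.035 with total gene signal, -0.038 in the authors' table, -0.29 with normexp and -0.16 with 1 background value, and between -0.16 and 0.23 without single arrays. At 12 h it was 0.055 with the pool block, at 24 h 0.93 and over all times 0.043 with normexp. Normexp left the median spot at 138 on the EtOH array before PHx of the 12 h pool and at 688 on the CHO 24 h array. It was 59.9 to 70.4 on the other 13. For the other reversals the cause was not tested.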
